A study of Homo sapiens with 10 samples.

Results

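The immunoproteasome and the peptide loading machinery make and deliver the peptides that HLA class I molecules show to T cells. The gene group held PSMB8, PSMB9 and PSMB10 (catalytic subunits of the immunoproteasome), PSME1 and PSME2 (the PA28 activator), TAP1 and TAP2 (the peptide transporter), TAPBP (tapasin), and ERAP1 and ERAP2 (aminopeptidases of the endoplasmic reticulum). Members were all probe sets annotated to 1 of these 10 genes and to no other gene. This gave 22 of the 54675 probe sets on the array, for 9 of the 10 listed genes and 9 of the 19775 genes named in the table. PSME2 shared its probe set with the microRNA gene MIR7703, so no value is given for it.

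The cells were MDA-MB-231, an established human line of triple-negative breast cancer. Each of 5 lines of these cells was measured on 2 Affymetrix arrays. The lines T2 and T3 are labelled resistant to SM-164 and the lines T6 and T8 sensitive. All 4 came from xenografts in SCID mice given SM-164 intravenously at 5 mg/kg, 5 days a week for 2 weeks. These tumours shrank under treatment, grew back after it ended, and their tumour cells were isolated for RNA. The parental line was cultured under standard conditions, was not grown in mice, and is also labelled sensitive. SM-164 belongs to the Smac mimetics, compounds that bind IAP proteins and so release caspases from their inhibition. SCID mice lack functional B and T lymphocytes. No untreated xenograft was analysed here and the parental cells are 1 line. In any comparison with parental cells, the drug, passage through mice, the isolation step and the state of that 1 line therefore cannot be told apart.

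The standard proteasome cuts proteins into peptides with the catalytic subunits PSMB5, PSMB6 and PSMB7. Interferon gamma induces PSMB8, PSMB9 and PSMB10, which take their places in newly assembled particles and shift cleavage toward the peptide ends that class I molecules prefer. TAP carries these peptides into the endoplasmic reticulum, ERAP1 and ERAP2 trim them, and tapasin holds empty class I molecules at the transporter until a peptide binds. NLRC5 and IRF1 are known activators of several of these genes.

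The values are log2 expression values (RMA) as the authors deposited them, so a difference of 1 is a factor of 2 in signal. Medians over all probe sets were 5.43 to 5.57 on the 10 arrays. Over probe sets, the correlation was 0.997 to 0.998 within a line and 0.986 to 0.996 between lines. Whether the 2 arrays of a line were made from different cultures is not given by the labels. The p-values over arrays therefore measure only how far repeat arrays lie apart, which can be technical. The 5 genes listed as high in this line (VIM, CD44, EGFR, CAV1 and AXL) had log2 values of at least 10.6 on every array. Of these, 2 were called higher and 2 lower in the tumours (25.5% and 16.8% over all genes tested), with CAV1 at -0.30 and EGFR at 0.24. Of the 5 listed as low, the progesterone receptor gene PGR lay at log2 3.78 to 4.16 on tumour arrays and at most 4.20 on parental arrays. CDH1 lay at 4.47 to 5.46 on tumour arrays and 5.13 and 4.95 on parental arrays, and ESR1 at 6.52 to 6.77 on tumour arrays and 6.78 and 6.65 on parental arrays. ERBB2, at 8.83 to 9.22 on tumour arrays and 9.23 and 9.29 on parental arrays, was not low, and neither was EPCAM, at 8.34 to 9.25 on tumour arrays and 8.67 and 8.13 on parental arrays. In bulk RNA, fewer cells of a type and less RNA per cell cannot be told apart.

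The promoters are shown because most of these genes carry one element in common at or near their starts. The ISRE core is the element bound by interferon regulatory factors. It was searched on both strands as GAAA, any 2 bases and GAAA again, in windows of 300 bases, 250 before to 50 after each RefSeq start (GRCh38.p14). The 10 listed genes had 14 windows, of which 9 held the core, against 3.57% of the 35116 windows of all genes. These 9 windows belonged to 9 genes, and PSME2, which has no value here, is not printed. Each line below runs 5′ to 3′ on the gene's strand with the core, or 2 overlapping cores, in capitals, and a core with TTTC at both ends lies on the opposite strand.
PSMB8, chr6:32844027-32844066, minus strand: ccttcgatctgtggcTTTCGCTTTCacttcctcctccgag
PSMB10, chr16:67936847-67936886, minus strand: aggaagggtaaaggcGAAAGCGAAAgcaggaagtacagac
PSME1, chr14:24136184-24136223, plus strand: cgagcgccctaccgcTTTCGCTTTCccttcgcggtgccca
TAP1, chr6:32853808-32853853, minus strand: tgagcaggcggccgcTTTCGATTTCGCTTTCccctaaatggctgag
TAP2, chr6:32838773-32838812, minus strand: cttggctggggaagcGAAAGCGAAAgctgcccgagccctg
TAPBP, chr6:33314068-33314113, minus strand: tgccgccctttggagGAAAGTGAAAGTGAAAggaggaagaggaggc
ERAP1, chr5:96807919-96807958, minus strand: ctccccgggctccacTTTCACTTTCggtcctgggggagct
ERAP2, chr5:96876455-96876494, plus strand: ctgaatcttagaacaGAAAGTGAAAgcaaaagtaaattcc
PSMB9 had no match in its own window. Its start lies 488 bases from that of TAP1, and both genes are read outward from the stretch between them. A match is a run of letters in the reference genome and not a measured binding site. The lines of PSMB8, ERAP1 and ERAP2 each belong to the window of a start that lies downstream of another RefSeq start of the gene.

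Of the 9 measured genes, 8 were lower in the regrown tumours than in the parental cells and none was higher. The background was 16.8% of the 14929 genes tested called lower and 25.5% called higher (limma, Benjamini-Hochberg adjusted p under 0.05). Of all calls 60.2% were higher, and 48.2% after repeated quantile normalization or 71.8% after centring each array on its median. The median difference of the 9 genes was -0.50 on the log2 scale, against 0.0015 over all genes tested. For these 8 genes all 8 tumour arrays lay below both parental arrays, which held for 12.4% of all genes tested. TAP2 was the exception, with 5 of 8 tumour arrays below both parental arrays. Compared with the parental cells, each single tumour had 8 of the 9 genes lower, with backgrounds of 15.5% for T2, 15.8% for T3, 13.7% for T6 and 15.1% for T8. When arrays were centred on their medians, T8 kept 4 calls of its 9 in either direction, and PSMB8, PSME1, TAP1, ERAP1 and ERAP2 lost theirs. Leaving out parental replicate 1 or T8 replicate 2 gave 6 calls in T8. These 4 comparisons share the 2 parental arrays. TAP2 was called higher in T8 alone, where 28.7% of all genes were.

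**Figure D1:**
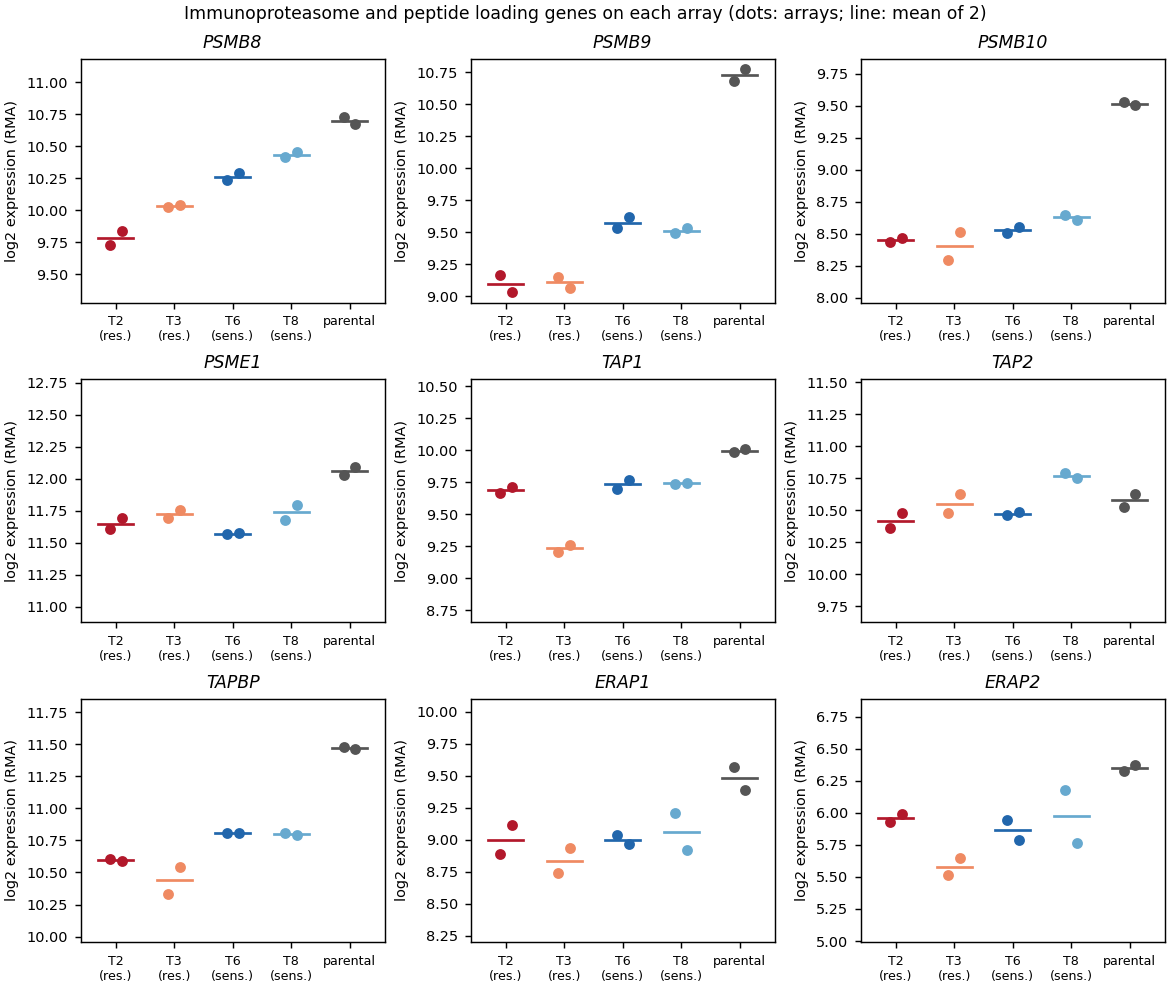
Log2 expression (vertical axis) of each measured gene on each array (dots), with the mean of the 2 arrays of a line as a bar, for the resistant tumours T2 and T3, the sensitive tumours T6 and T8, and parental cells. The parental arrays are the highest 2 in 8 of the 9 panels; in the TAP2 panel they lie among the tumour arrays, with T8 on top.

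All 3 catalytic subunits of the immunoproteasome were lower in the tumours, and PSMB9 and PSMB10 showed the largest falls in the group. PSMB9 (also called LMP2 or beta1i; chr6:32854192-32859851) had log2 values of 9.16 and 9.03 in T2, 9.15 and 9.07 in T3, 9.53 and 9.62 in T6, and 9.49 and 9.53 in T8, against 10.68 and 10.77 in parental cells. The 4 resistant arrays formed the lowest block, the 4 sensitive tumour arrays came next, and the parental arrays stood more than 1 log2 unit above the highest tumour array. The tumours differed from parental cells by -1.40 ± 0.06 (SE; limma adjusted p = 1.41e-10), so their signal was 37.9% of the parental signal.

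PSMB10 (MECL-1 or beta2i; chr16:67934506-67936850) had values of 8.44 and 8.47 in T2, 8.30 and 8.51 in T3, 8.51 and 8.55 in T6, and 8.65 and 8.60 in T8, against 9.53 and 9.50 in parental cells. All tumour arrays lay close together and well below the parental arrays. The difference was -1.01 ± 0.07 (limma adjusted p = 1.94e-08), or 49.6% of the parental signal, and no pair of tumours differed in this gene past the threshold.

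PSMB8 (LMP7 or beta5i; chr6:32840717-32844679) gave a graded order. Its values were 9.73 and 9.84 in T2, 10.03 and 10.04 in T3, 10.24 and 10.29 in T6, and 10.41 and 10.45 in T8, against 10.73 and 10.67 in parental cells. No 2 lines overlapped. On average the tumours differed from parental cells by -0.57 ± 0.05 (limma adjusted p = 5.25e-07), at 67.3% of the parental signal. Among neighbours in the order, T2 lay below T3, T3 below T6 and T8 below parental cells, whereas T6 and T8 did not differ past the threshold (adjusted p = 0.0977).

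Of the constitutive subunits that these 3 replace, PSMB5 and PSMB6 were higher in the tumours and PSMB7 was lower. PSMB5, the counterpart of PSMB8, ran from 11.84 to 12.16 on tumour arrays, against 11.81 and 11.85 on parental arrays. PSMB5 was higher in the tumours by 0.14 ± 0.05 (limma adjusted p = 0.0337), a call that was lost under 7 of 18 alternative settings (0.05 after repeated quantile normalization). The counterpart of PSMB9, PSMB6, ran from 12.50 to 12.70 on tumour arrays, against 12.39 and 12.38 on parental arrays, and was higher by 0.20 ± 0.04 (limma adjusted p = 0.00152), or by 0.13 after repeated quantile normalization. PSMB7, the counterpart of PSMB10, ran from 12.46 to 12.82 on tumour arrays, against 12.90 and 12.92 on parental arrays. Its difference was -0.24 ± 0.05 (limma adjusted p = 0.0017), a call lost when each array was centred on its median. Of 10 other subunits of the 20S core, 2 were lower and none higher, namely PSMB1 at -0.19 and PSMB4 at -0.16. Both of these calls were lost when arrays were centred on their medians. That of PSMB4 was also lost without parental replicate 2 and with eBayes without trend. Of 5 assembly factors of the core, 2 were lower, with PSMG4 at -0.57 and PSMG2 at -0.14. Averaged over probe sets PSMG4 differed by -0.17 and lost the call, as it did without its less specific probe sets (-0.19). PSMG2 was lower in T2 (-0.56) and T6 (-0.31) but higher in T8 (0.21), and its average lost the call under 9 of 18 alternatives, leaving out either parental array among them. Of 15 measured subunits of the 19S regulator, which unfolds ubiquitin-tagged proteins, 4 were higher and 2 lower. ADRM1, a ubiquitin receptor, changed by 0.34 and PSMC2, an ATPase, by -0.37 (-0.57 without its less specific probe sets). Over all genes tested, 25.5% were called higher and 16.8% lower. The 19S counts and the share called lower in the 20S core lie near this background.

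**Figure D2:**
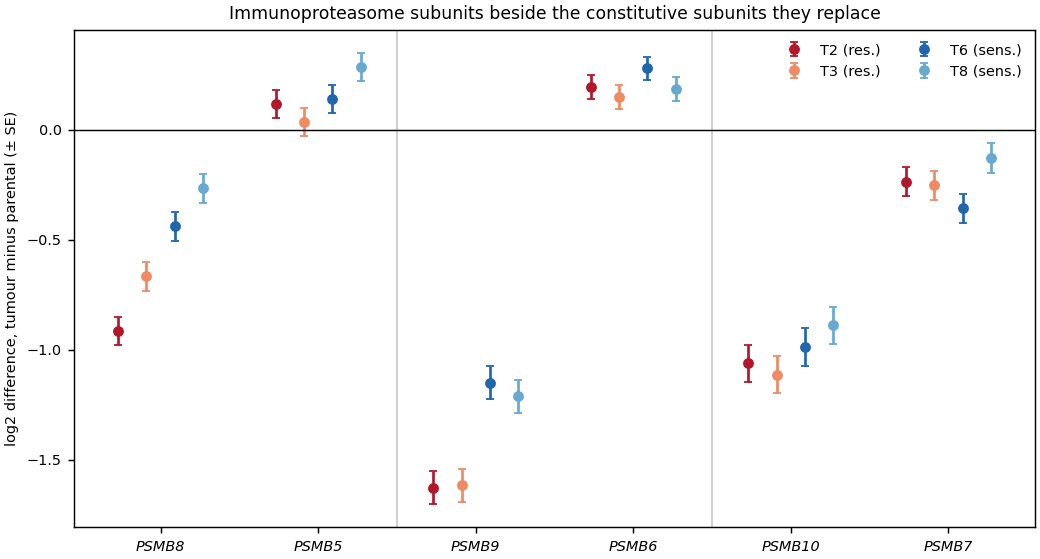
Log2 difference of each tumour from parental cells, with its standard error, for each immunoproteasome subunit and, to its right, the constitutive subunit whose place it takes. PSMB8, PSMB9 and PSMB10 lie below 0 in all 4 tumours, PSMB5 and PSMB6 lie above 0, and PSMB7 lies below 0 by less than PSMB10.

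PSME1 encodes the alpha subunit of PA28, a ring that opens the proteasome independently of ubiquitin (chr14:24136194-24138962). Its values were 11.60 and 11.70 in T2, 11.69 and 11.76 in T3, 11.57 and 11.57 in T6, and 11.68 and 11.80 in T8, against 12.03 and 12.09 in parental cells. All 8 tumour arrays were lower, in a narrow range without a gap between resistant and sensitive lines. The difference from parental cells was -0.39 ± 0.05 (limma adjusted p = 1.23e-05), or 76.3% of the parental signal. The other activators and the inhibitor of the proteasome did not follow it: of 3 genes measured, 2 were higher and none lower (25.5% and 16.8% over all genes tested). PSME4, which encodes the nuclear activator PA200, was at 0.47 and PSMF1, which encodes the inhibitor PI31, at 0.34.

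The transporter genes parted ways. TAP1 (chr6:32845209-32853704) had values of 9.67 and 9.71 in T2, 9.21 and 9.26 in T3, 9.70 and 9.77 in T6, and 9.74 and 9.75 in T8, against 9.98 and 10.01 in parental cells. T3 stood apart at the low end, the neighbours T2 and T6 and the neighbours T6 and T8 did not differ past the threshold, and T8 lay below parental cells (adjusted p = 0.00734). Averaged over the tumours, TAP1 differed by -0.40 ± 0.05 (limma adjusted p = 2.88e-05), and T3 alone differed from parental cells by -0.76 ± 0.07.

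TAP2 encodes the other chain of the transporter (chr6:32821831-32838739). On its strongest probe set it had values of 10.36 and 10.48 in T2, 10.48 and 10.63 in T3, 10.46 and 10.48 in T6, and 10.79 and 10.75 in T8, against 10.52 and 10.63 in parental cells. T8 lay above all other arrays and the remaining lines overlapped or nearly touched. The tumours differed from parental cells by -0.02 ± 0.06 (limma adjusted p = 0.763), which turned to 0.04 when each array was centred on its median. T8 alone differed by 0.19 ± 0.07 (limma adjusted p = 0.0404). That T8 call was lost under 7 of 18 alternatives, among them leaving out either T8 array or parental replicate 1, and turned under 1, and in the fit over all probe sets it had an adjusted p of 0.0501. The other 2 tested probe sets of TAP2 had differences of -0.24 ± 0.10 (adjusted p = 0.0813) and -0.06 ± 0.09 (adjusted p = 0.619). The missed threshold does not show that TAP2 was equal in tumours and parental cells. Under 2 alternative settings of the gene fit it became a call of lower expression, with differences down to -0.18. These were repeated quantile normalization and the mean over probe sets. That mean takes in an untested probe set below log2 5 on all 10 arrays. Its line means were 4.36 to 4.64 in the tumours and 4.86 in parental cells.

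Tapasin, the product of TAPBP, bridges class I molecules and TAP (chr6:33299694-33314078). TAPBP had values of 10.60 and 10.59 in T2, 10.34 and 10.54 in T3, 10.81 and 10.81 in T6, and 10.81 and 10.80 in T8, against 11.48 and 11.46 in parental cells. The resistant arrays were the lowest 4 and the parental arrays lay more than 0.5 above the sensitive ones. The tumours differed by -0.81 ± 0.05 (limma adjusted p = 2.04e-08), at 57.0% of the parental signal. A second probe set gave -0.58 ± 0.07 (adjusted p = 1.32e-05), and a further one had values near the filter of log2 5 and was not tested. Of 6 other chaperones of peptide loading, 2 were lower and none higher (16.8% and 25.5% over all genes tested). TAPBPL, a tapasin relative, fell by 0.36 and HSPA5, a general chaperone, fell by 0.16. The call of TAPBPL was lost without parental replicate 2. That of HSPA5 (adjusted p = 0.0492) was lost under 13 of 18 alternatives, with a value of -0.025 without parental replicate 1 and -0.30 without parental replicate 2.

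The trimming enzymes were lower by similar amounts. ERAP1 (chr5:96760813-96935854) had values of 8.89 and 9.11 in T2, 8.74 and 8.94 in T3, 9.03 and 8.97 in T6, and 9.21 and 8.92 in T8, against 9.57 and 9.39 in parental cells. Its difference was -0.50 ± 0.09 (limma adjusted p = 2.85e-04), and the other 2 tested probe sets gave -0.61 ± 0.10 and -0.34 ± 0.09, both called lower; the mean over all its probe sets was -0.31. The tumours lay close together and none overlapped the parental arrays.

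ERAP2 (chr5:96875984-96919716) had values of 5.93 and 5.99 in T2, 5.52 and 5.64 in T3, 5.94 and 5.79 in T6, and 6.18 and 5.77 in T8, against 6.32 and 6.37 in parental cells. These signals lay near the filter, where a log2 difference understates the change. The tumours differed by -0.50 ± 0.11 (limma adjusted p = 0.00208), with 8 of 8 arrays below both parental arrays. In T2 and T8 the call was narrow (adjusted p = 0.0482 and 0.0447), and it was lost in 13 and 10 of 17 alternative settings. Without T8 replicate 2 the T8 difference was -0.17 for ERAP2 and -0.27 for ERAP1, neither called. A second probe set of ERAP2 gave -0.57 ± 0.14, but its parental arrays stood at 5.88 and 5.14, further apart than the 2 arrays of any other line on any probe set of the group. This probe set reached log2 5 on 3 arrays, both parental arrays and T2 replicate 2 (5.05). It thus passed the filter through the parental arrays, which favours a call of lower expression. ERAP1 and ERAP2 lie beside each other and the annotated span of ERAP1 covers ERAP2. Of 6 other peptidases that can trim or destroy antigenic peptides, 2 were higher and 1 lower (25.5% and 16.8% over all genes tested). Among them were the cytosolic peptidases TPP2 at 0.28 and NPEPPS at -0.35. The TPP2 call was lost without parental replicate 2, and NPEPPS was at -0.20 averaged over probe sets.

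Over all probe sets of the group, 15 of 22 passed the filter of log2 5 on at least 2 arrays. Of these 15, 12 were called lower in the tumours and none higher, against 14.4% lower among the 33341 probe sets tested. The 12 include the second probe set of ERAP2, which passed the filter through the parental arrays, so its call carries no weight of its own. The 3 probe sets without a call were those of TAP2. The 7 untested probe sets belonged to TAP2, TAPBP, ERAP1 and ERAP2 and had values between 3.14 and 5.14.

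**Figure D3:**
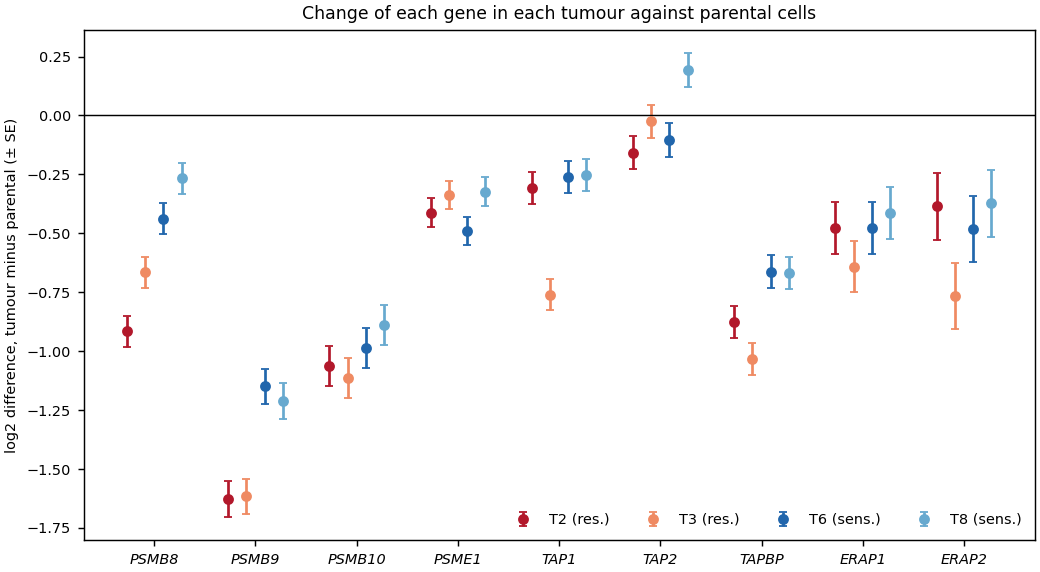
Log2 difference of each tumour from parental cells, with its standard error, for the 9 measured genes. All 4 tumours lie below 0 for 8 genes, T3 is the lowest for TAP1, and T8 is the only tumour above 0 for TAP2.

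On chromosome 6, TAP2, PSMB8, TAP1 and PSMB9 are consecutive protein-coding genes of the class II region, and they did not move by equal amounts. From TAP2 through PSMB8 and TAP1 to PSMB9 the differences from parental cells were -0.02, -0.57, -0.40 and -1.40. Between PSMB8 and TAP1 lies the long noncoding RNA gene PSMB8-AS1 (chr6:32844086-32846500), which overlaps both. On its stronger probe set PSMB8-AS1 had values of 4.76 and 5.02 in T2, 5.04 and 5.09 in T3, 5.35 and 5.48 in T6, and 5.71 and 5.46 in T8, against 7.50 and 7.31 in parental cells. This difference of -2.17 ± 0.11 (limma adjusted p = 1.06e-09) exceeded that of any member. A second probe set of PSMB8-AS1 was flat, at 4.91 to 5.26 on all 10 arrays, and the mean of both probe sets gave -1.13. HLA-DOB, the next gene beyond TAP2, had a difference of -0.08 ± 0.10 (adjusted p = 0.528). Neither neighbour of TAPBP was called, with RGL2 at 0.04 ± 0.06 and ZBTB22 at -0.18 ± 0.08 (adjusted p = 0.0672). Outside chromosome 6, LCAT beside PSMB10 had a difference of -0.12 ± 0.11 and EMC9, between PSME1 and PSME2, one of 0.09 ± 0.06, neither of them called.

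**Figure D4:**
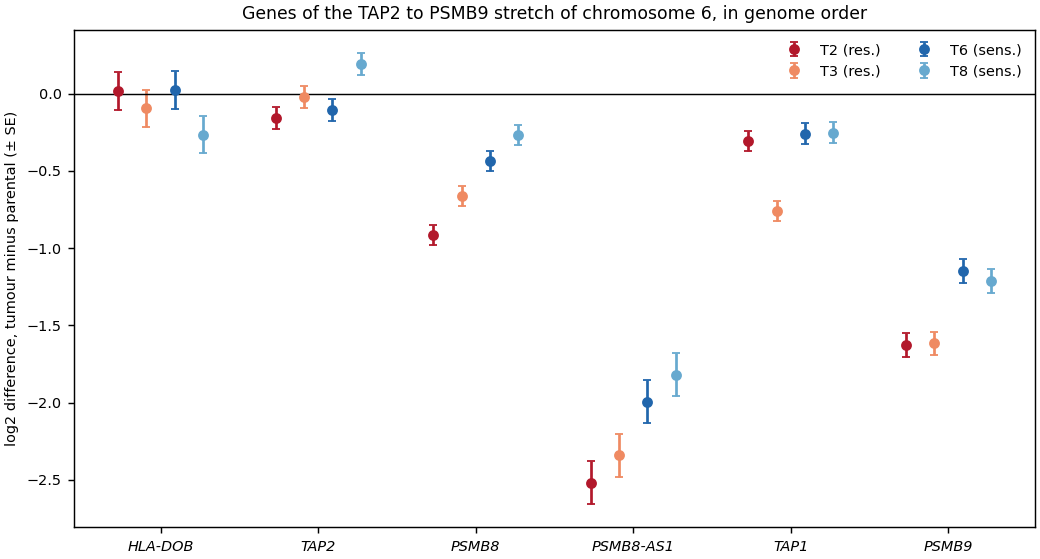
Log2 difference of each tumour from parental cells, with its standard error, for HLA-DOB, TAP2, PSMB8, PSMB8-AS1, TAP1 and PSMB9 in the order in which they lie on chromosome 6 (evenly spaced, not to genomic scale). PSMB8-AS1 and PSMB9 show the largest falls; HLA-DOB and TAP2 lie around 0.

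The bases before the start of TAP1 are shown because they lie in the stretch between the starts of TAP1 and PSMB9. These 250 of its bases run 5′ to 3′ on the TAP1 strand (GRCh38.p14, chr6:32853705-32853954, minus strand, RefSeq). Capitals mark, in order, 2 overlapping ISRE cores that begin 134 bases before the start, a match to the kB motif of NF-kB 72 bases before it, and a GC box (GGGCGG, here on the opposite strand) 55 bases before it.
TAP1 promoter: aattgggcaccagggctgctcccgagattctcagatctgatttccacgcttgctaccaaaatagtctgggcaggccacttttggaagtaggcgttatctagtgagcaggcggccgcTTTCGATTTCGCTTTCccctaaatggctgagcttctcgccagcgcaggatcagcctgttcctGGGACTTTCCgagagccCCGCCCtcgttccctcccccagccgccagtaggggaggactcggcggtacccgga
A kB match occurred in 11.3% of all windows and a GC box in 45.0%. TAPBP and ERAP1 also held a kB match, 56 and 73 bases before a start, which for ERAP1 is the downstream one. The interferon gamma element GAS, searched on both strands as TTCNNNGAA, was found in 7.66% of all windows and among the 14 windows of the group in those of a downstream start of PSMB8 and of TAP1.

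The resistant tumours T2 and T3 were set against the sensitive tumours T6 and T8 to ask which of these genes go with the labelled response. The largest differences in mean, all toward lower values in the resistant tumours, were those of PSMB8, PSMB9, TAPBP and TAP1. The means of PSMB10, TAP2, ERAP1 and ERAP2 were also lower there, by less. With the tumour as the replicate, 2 against 2, none of the 9 genes passed the threshold in limma, and neither did any of the 14929 genes tested (0.0% called). At an unadjusted p under 0.05 there were 661 genes, 2 of them in the group, namely PSMB8 and PSMB9, and the smallest adjusted p of any gene was 0.894. With the line as a random block, limma called 2 genes higher and 2 lower of the 14929.

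Over arrays, a fit that asks only whether these particular tumours differ beyond the spread between their arrays, 4 of the 9 genes were lower in the resistant tumours and none was higher. The background was 14.2% of genes lower and 4.76% higher, so that 25.1% of calls were higher (47.9% after repeated quantile normalization, 16.3% after centring medians), with a median difference of -0.15 for the 9 genes and -0.02 for all genes. PSMB8 differed by -0.44 ± 0.05 (limma adjusted p = 2.73e-05), with a standard error of 0.15 when the tumour was the replicate. The corresponding value for PSMB9 was -0.44 ± 0.05 (limma adjusted p = 8.87e-05), with a standard error of 0.11 over tumours. TAPBP differed by -0.29 ± 0.05 (limma adjusted p = 0.00114), or by -0.15 (adjusted p = 0.0464) with the mean over probe sets, and TAP1 by -0.28 ± 0.05 (limma adjusted p = 0.00129). For PSMB8, PSMB9 and TAPBP every resistant array lay below every sensitive tumour array, which held for 6.44% of all genes. The classes overlapped in TAP1, where T2 at 9.67 and 9.71 reached into the range of T6 and T8 and only T3 lay apart. The other 5 genes were not called: PSMB10 differed by -0.15 ± 0.06, TAP2 by -0.13 ± 0.05, ERAP1 by -0.11 ± 0.08, ERAP2 by -0.15 ± 0.10 and PSME1 by 0.03 ± 0.04 (adjusted p from 0.0747 to 0.626). The value of PSME1 turned to -0.0039 when each array was centred on its median. The parental line, labelled sensitive like T6 and T8, was above all tumours in 8 of the 9 genes.

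**Figure D5:**
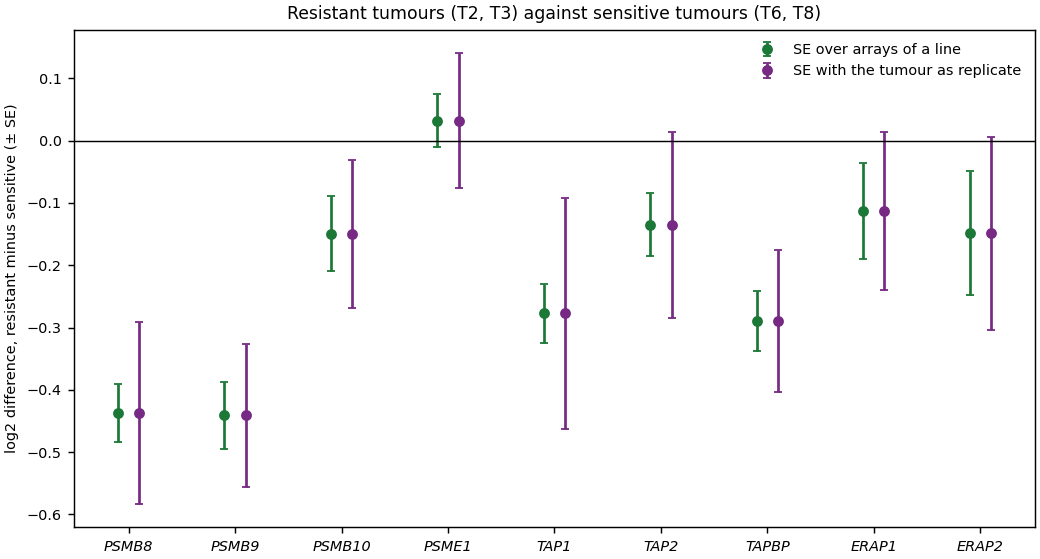
Log2 difference of the resistant tumours T2 and T3 from the sensitive tumours T6 and T8, with the standard error over arrays (left of each pair) and with the tumour as the replicate (right of each pair). PSMB8, PSMB9, TAP1 and TAPBP lie lowest, and the standard errors over tumours are wider for each of the 9 genes.

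Pairs of tumours differed within a class as well as between classes. Within the resistant class, PSMB8 was lower in T2 than in T3 (difference -0.25) and TAP1 was higher (difference 0.45), where 16.9% of all genes were called lower and 13.9% higher. Within the sensitive class, TAP2 was lower in T6 than in T8 (difference -0.30), with a background of 10.4%; the call was lost under 5 of 18 alternatives, which include leaving out any array of T6 or T8. Between classes, T2 was lower than T6 in 2 of the 9 genes (background 6.38%) and lower than T8 in 4 (22.1%). T3 was lower than T6 in 4 genes (13.7%) and lower than T8 in 5 (13.8%). PSMB8 and PSMB9 were called in each of these 4 comparisons between classes, and TAP1 only in those with T3. Narrow calls among the pairs were TAP2 in T3 minus T8, lost under 11 of 18 alternatives, TAPBP in T2 minus T8, lost under 9 of 18, and PSMB8 in T3 minus T6, lost under 6 of 17. PSMB10, PSME1, ERAP1 and ERAP2 were called in none of the 6 pairs.

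Within the 8 tumour arrays, from which the parental difference is absent, the members correlated in unequal degree. Pairs of arrays share a tumour, so these correlations rest on 4 tumours and serve as a description. ERAP1 and ERAP2 gave the highest value, r = 0.89. PSMB9 and PSMB8 correlated at r = 0.84, PSMB9 and TAPBP at 0.83, PSMB10 and TAPBP at 0.87 and TAP1 and TAPBP at 0.85. PSME1 had r = 0.66 with TAP2, 0.18 with PSMB8, 0.13 with PSMB10, -0.32 with PSMB9 and -0.35 with TAP1.

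The transcripts of class I chains were lower with those of the loading genes. All 6 class I chains with a probe set of their own were called lower in the tumours, with a median of -0.78, where 16.8% of all genes tested were called lower. HLA-B had 13.15 and 13.06 in T2, 12.88 and 12.99 in T3, 13.03 and 13.09 in T6, and 13.13 and 13.20 in T8, against 14.13 and 14.13 in parental cells. That difference was -1.06 ± 0.04 (limma adjusted p = 1.14e-10), and HLA-F differed by -0.91 ± 0.07 (-0.48 without its less specific probe sets). HLA-B had no value without its less specific probe sets, so its difference rests on those alone. Over arrays, 1 of the 6 chains was lower in the resistant tumours than in the sensitive ones, near the background of 14.2% of all genes.

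Among 10 tested regulators of the pathway, 3 were lower in the tumours and 2 higher, against 16.8% lower and 25.5% higher over all genes tested. NLRC5, the activator of class I genes, had 5.91 and 5.55 in T2, 5.75 and 5.89 in T3, 5.94 and 6.03 in T6, and 5.57 and 5.66 in T8, against 6.84 and 7.04 in parental cells. NLRC5 differed by -1.15 ± 0.11 (limma adjusted p = 8.58e-07), without overlap. IRF1, an interferon regulatory factor that binds the ISRE, ranged from 7.67 to 8.29 on tumour arrays, against 8.80 and 8.63 on parental arrays, a difference of -0.73 ± 0.08 (limma adjusted p = 2.42e-06). RFX5, a subunit of the factor that binds HLA promoters, differed by -0.25 ± 0.05, whereas IRF9 and STAT3 were higher by 0.29 ± 0.06 and 0.23 ± 0.05. The RFX5 call was lost when arrays were centred on their medians, and STAT3 was higher by 0.14 after repeated quantile normalization. CIITA at -0.18 ± 0.13, IRF2 at -0.24, IRF8 at -0.08, RFXAP at 0.25 and RFXANK at 0.04 did not pass the threshold. Neither NLRC5 (-0.02) nor IRF1 (-0.05) was called between resistant and sensitive tumours over arrays. Of the 10 regulators, 2 were called lower in the resistant tumours and none higher, against 14.2% and 4.76% of all genes. RFXAP was among them, at -0.65 ± 0.15 (limma adjusted p = 0.00896), with signals near the filter. With the tumour as the replicate it did not pass (adjusted p = 0.894).

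Other interferon genes moved in both directions. The background for the counts that follow was 16.8% of all genes tested called lower and 25.5% called higher. Of 16 tested targets of interferon gamma, 8 were lower and 2 higher, with a median of -0.28; SAMD9L, a growth-restricting antiviral gene, differed by -1.75 ± 0.09 and XAF1, an antagonist of XIAP, by -0.82 ± 0.12. Of 19 tested targets of type I interferon, 8 were lower and 2 higher, with a median of -0.14. RSAD2, which encodes viperin, differed by -1.43 ± 0.09 and OAS1, an RNA sensor, by 1.15 ± 0.10, but unevenly over the tumours. RSAD2 was at -0.31 in T2, not called, -2.15 in T3, -1.11 in T6 and -2.16 in T8. OAS1 was at 1.85 in T2, 0.24 in T3, not called, 1.66 in T6 and 0.85 in T8. Of 7 tested genes of the interferon gamma receptor and its signalling, 2 were lower and 2 higher. The receptor chain IFNGR2 differed by -0.55 and the feedback inhibitor SOCS3 by 0.59, with SOCS3 at 0.11 and not called in T3. Of 5 subunits of NF-kB, 3 were higher and 1 lower, with REL at 0.40 ± 0.12 and NFKB1 at 0.33 ± 0.06. Averaged over probe sets, SOCS3 was at 0.18 and XAF1 at -0.48, and the REL call was lost without parental replicate 2 (0.18; 0.63 without parental replicate 1).

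Markers of other cells were read beside these results, since isolated tumour cells can carry host cells, which in SCID mice are mouse cells. The leukocyte marker PTPRC, low on all arrays, had 3.78 to 4.17 on tumour arrays and at most 4.11 on parental arrays. The mean over 6 macrophage markers was 5.93 to 6.25 on tumour arrays and 6.35 to 6.47 on parental arrays, and 3 of 5 tested were called lower, among them CSF1R at -0.68 and LAPTM5 at -0.61. Over all genes tested 16.8% were called lower and 25.5% higher, the background for each marker list here. LAPTM5 was at -1.46 in T3 but at -0.04 in T8, where it was not called. It had the highest values of the macrophage list (9.16 to 10.68 on tumour arrays), and CSF1R lay near the filter (4.78 to 5.24). Of 7 endothelial markers 4 were called higher, with ROBO4 at 0.82 and TIE1 at 0.49. TIE1 was called in T8 alone (1.05), and its average lost the call without parental replicate 2 (0.36). TIE1 reached log2 5 only on the 2 T8 arrays (5.77 and 5.24). It thus passed the filter through that tumour, which favours a call of higher expression. CDH5, at 3.34 to 5.23 on tumour arrays and 3.57 and 3.62 on parental arrays, also passed it through tumour arrays. The endothelial count is subject to this filter effect. The mean over the endothelial list was 5.88 to 6.36 on tumour arrays and 5.80 to 5.81 on parental arrays. Of 6 tested fibroblast and pericyte markers, 2 were lower, with COL1A2 at -0.38 and DCN at -0.31. The DCN call was lost under 8 of 16 alternatives, leaving out either parental array among them, and that of COL1A2 without parental replicate 1. The mean over the fibroblast and pericyte list was 5.89 to 6.07 on tumour arrays and 6.05 to 6.07 on parental arrays. HBB, the lymphocyte and blood marker called, differed by -0.28, a call lost under 10 of 18 alternatives (-0.18 without parental replicate 2) and turned under another. The mean over the lymphocyte and blood list was 5.06 to 5.47 on tumour arrays and 5.23 to 5.41 on parental arrays. How far transcripts of mouse cells bind these human probes was not tested, nor was the part of other cells in the results.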

How the data were processed

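Total RNA (5 ug per labelling) of 10 samples was hybridised to Affymetrix arrays. The authors deposited log2 expression values of 54675 probe sets, made with affy, RMA and limma per the submitters' processing notes, which give no versions. RMA corrects background, quantile-normalises probes and summarises each probe set. Arrays carry no read depth; precision depends on how many there are and how far a signal lies above background.

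Names came from the platform annotation, updated by Entrez number against RefSeq (GRCh38.p14). Of the probe sets, 41091 had 1 symbol, 1801 several and 11721 none, and 62 controls were left out. Each gene was represented by its probe set of highest mean over the arrays, and tested if that reached log2 5 on at least 2 arrays, which left 14929 genes. Models were fitted in limma 3.58.1 (R 4.3.3; lmFit, eBayes with trend) with 1 coefficient per line. Calls were made at an adjusted p under 0.05 (Benjamini-Hochberg) over all genes tested. Residual degrees of freedom were 5 (prior 9.39) over arrays and 2 (prior 2.73) with the tumour as replicate. The script was tested on simulated data.

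The members and the gene lists were chosen with earlier results of these data known. Named were all members, the 2 called genes of each other list with the largest change, all regulators and constitutive catalytic subunits, the direct neighbours, and the genes with the most similar profile; further markers (PGR, EPCAM, PTPRC and others) were named after their values were seen. Replicate numbers did not pair the arrays in the same direction throughout: deviations from line means correlated at -0.39 to 0.50 over 10 pairs of lines, 4 of them above 0.1. Correlations of this size mean that some lines shared array deviations. The main fits over arrays have no term for these, and a shared batch was not tested. Alternatives were other filters, scalings, probe set choices, variance settings, a replicate block and leaving out each array.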

Additional observations from a re-analysis of the deposited data

Results flagged for a closer look

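Differences between 2 tumours under the same comparison with parental cells, or between the resistant and sensitive tumours, that passed limma's adjusted threshold over arrays are collected here. Such a test rests on how far the 2 arrays of each line lie apart.

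Resistant minus sensitive, the log2 difference was -0.44 for PSMB8, -0.44 for PSMB9, -0.29 for TAPBP and -0.28 for TAP1. With the tumour as the replicate none of the 4 passed (adjusted p = 0.894 for each). PSMB8 was lower in T2 than in each other tumour, at -0.25 against T3, -0.48 against T6 and -0.65 against T8. It was also lower in T3, at -0.23 against T6 and -0.40 against T8. PSMB9 differed between each resistant and each sensitive tumour, by -0.48 for T2 minus T6, -0.41 for T2 minus T8, -0.47 for T3 minus T6 and -0.40 for T3 minus T8. TAP1 was lowest in T3: the differences were 0.45 for T2 minus T3, -0.50 for T3 minus T6 and -0.51 for T3 minus T8. TAPBP differed by -0.21 for T2 minus T8 (lost under 9 of 18 alternatives), -0.37 for T3 minus T6 and -0.36 for T3 minus T8; averaged over probe sets the last 2 were -0.21 and -0.23. TAP2 was highest in T8, with -0.35 for T2 minus T8 (-0.20 averaged over probe sets), -0.22 for T3 minus T8 (lost under 11 of 18 alternatives, and adjusted p = 0.0624 in the probe set fit) and -0.30 for T6 minus T8 (lost under 5 of 18).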

How the results depend on the processing

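The 8 calls of lower expression in the tumours than in parental cells held under each alternative that gave a value; without the less specific probe sets (_s_at and _x_at) PSMB8 and TAP1 had none, and with the mean over probe sets ERAP2 had none. The 4 calls of resistant minus sensitive over arrays also held under each alternative that gave a value. Of 1429 member values under alternatives, 1333 kept direction and call, 75 lost the call, 9 gained one and 12 changed sign; the cause was not tested. The number of members called changed by over 1.5 times as follows. Without the less specific probe sets, which left 7 members, it was 2 (against 4) for resistant minus sensitive over arrays, 5 (against 8) for T2 minus parental, 0 (against 2) for T2 minus T3, 1 (against 2) for T2 minus T6, 2 (against 4) for T3 minus T6 and 2 (against 5) for T3 minus T8. It was 4 (against 9) for T8 minus parental with centred medians, and for T6 minus T8 it was 0 with the mean over probe sets and 2 with the replicate block (against 1). The replicate block left the count of tumours minus parental at 8 and changed no count but that of T6 minus T8 by over 1.5 times. Leaving out 1 array in turn gave 8 to 8 for tumours minus parental, 0 to 0 with the tumour as replicate, 4 to 6 for resistant minus sensitive over arrays, 7 to 8 for T2, 8 to 8 for T3, 6 to 8 for T6 and 6 to 9 for T8 minus parental, and 10 to 13 probe sets. For pairs of tumours it gave 1 to 3 (T2 minus T3), 0 to 1 (T6 minus T8), 2 to 3 (T2 minus T6), 3 to 4 (T2 minus T8), 3 to 4 (T3 minus T6) and 4 to 6 (T3 minus T8). The T8 count was 6 without parental replicate 1 and without T8 replicate 2. Among uncalled values of tumours minus parental, the sign changed for TAP2 with centred medians (0.04). Leaving out parental replicate 1 or 2 gave -0.077 or 0.030 for TAP2, -0.41 or 0.045 for CIITA, -0.20 or 0.033 for IRF8, -0.24 or 0.0019 for LCAT and 0.56 or -0.062 for RFXAP. Repeated quantile normalization turned RFXANK (-0.053) and RGL2 (-0.050), the mean over probe sets turned FAM111A (0.022), and leaving out the less specific probe sets turned HBB (0.066). In resistant minus sensitive, PSME1 turned with centred medians (-0.0039) and ERAP1 with the mean over probe sets (0.020) and without the less specific probe sets (0.22). TAP2 turned in T3 minus parental with centred medians (0.035), without parental replicate 2 (0.028) and without T3 replicate 1 (0.048; -0.098 without T3 replicate 2), and in T8 minus parental with the mean over probe sets (-0.072). The mean over probe sets takes in those not tested singly. For TAP2, TAPBP, ERAP1 and ERAP2 these had values between 3.14 and 5.14. The share of all calls that were higher also moved with the scaling in T6 minus parental (60.1%, 47.4% after repeated quantile normalization, 71.4% with centred medians) and T8 minus parental (65.6%, 48.3%, 79.1%), and, after repeated quantile normalization, in T6 minus T8 (30.9%, then 48.3%), T2 minus T6 (32.6%, then 49.6%), T2 minus T8 (30.4%, then 50.7%, and 19.5% with centred medians) and T3 minus T8 (25.3%, then 44.6%). Signals near the filter, as for ERAP2, and 2 arrays per line limit what these data can show.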

Other observations

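The genes whose profile over the 10 arrays was most like the median of the 9 genes were, among 4979 genes whose line means spanned at least log2 0.5, CEP43 (Pearson r = 0.989), SLC31A2 (0.984), MBNL2 (0.983), HS6ST1 (0.982) and TRERF1 (0.979). The gap between tumour and parental arrays enters these values; over the 8 tumour arrays alone they were 0.954, 0.934, 0.917, 0.932 and 0.931. All 5 were called lower in the tumours, from -0.84 for TRERF1 to -0.47 for CEP43. Averaged over probe sets, CEP43 was at -0.30, MBNL2 at -0.34 and HS6ST1 at -0.16, the last without a call. For single members, the closest genes were USP16 for PSMB8 (r = 0.981), NDUFB2 for PSMB9 (0.988), TRIM24 for PSMB10 (0.994), PDAP1 for PSME1 (0.982), AVPI1 for TAP1 (0.986), FAM111A for TAP2 (0.946), ARNT2 for TAPBP (0.990), MOV10 for ERAP1 (0.984) and KIAA1549 for ERAP2 (0.957). FAM111A, like TAP2, was not called between tumours and parental cells (-0.13). The 10 arrays come from 5 lines and share their normalisation, so these values describe likeness over these arrays.

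PSMB8-AS1, the antisense neighbour, was also lower in the resistant than in the sensitive tumours over arrays, by -0.52 ± 0.10 (limma adjusted p = 0.00257), and not with the tumour as the replicate (adjusted p = 0.894). These tumour values, 4.76 to 5.71, lie around the filter of log2 5, and the second probe set showed no such separation, with 5.10 and 5.11 in T2 and 4.91 and 5.05 in T3, against 5.01 and 5.09 in T6 and 5.02 and 5.26 in T8.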
